A study of Mus musculus with 12 samples.

Results

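The 10 genes described here, Acta1, Myh1, Myh2, Myh4, Mylpf, Tnnt3, Tnni2, Tnnc2, Ckm and Mb, are genes of skeletal muscle fibres, read in preparations of mouse mammary epithelial cells. They were chosen by their intensities on these same arrays, which were known to vary widely between the preparations. Every probe set whose platform annotation gives 1 of these symbols and no other was taken, which gave 17 of the 45101 probe sets on the array, for 10 of the 18193 genes that probe sets with 1 symbol read. Of these 17, 11 were bright enough to be tested between genotypes, and 6 were not, among them the only Myh2 probe set.

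Expression was measured on 12 single-colour arrays. The mice were females of the inbred strain FVB/N. Those of the p190B group (6 arrays) carried MMTV-rtTA together with TetO-p190B-IRES-luciferase, so that the doxycycline-dependent activator rtTA, made under the mammary tumour virus promoter, switches on p190B. Those of the control group (6 arrays) carried MMTV-rtTA alone. All mice of both groups ate doxycycline chow at 2 g/kg for 7 days from 5 weeks of age, and mammary epithelial cells were isolated at 6 weeks. The labels call the arrays of a group biological replicates and do not say how many mice each preparation pooled. The MMTV promoter is used to direct expression to mammary epithelium and not to skeletal muscle.

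The deposited values are intensities on a linear scale, with array medians from 187 to 210.5 units. Precision is set by how many arrays there are and by how far the arrays of a genotype differ. The labelled cell type was present on every array: Krt8, a keratin of luminal cells, read 40415 to 44385 units on p190B arrays and 38760 to 47661 on control arrays, and the epithelial adhesion molecule Epcam read 24624 to 27944 and 22469 to 29888. p190B replicate 3 stood apart in the array's own control probe set for 18S ribosomal RNA, and had the highest 3′ over 5′ ratio for Actb. Its 3′ probe set for 18S ribosomal RNA read 4266 units, against 330 to 725 on the other p190B arrays and 233 to 433 on control arrays, and its log2 ratio of the 3′ over the 5′ Actb probe set was 0.59, against 0.31 to 0.48 and 0.25 to 0.35. p190B replicate 1 was next in both, with 725 units and 0.48. The same ratio for Gapdh was −0.37 on p190B replicate 3, within the −0.48 to −0.32 of the other p190B arrays. Control arrays ran from −0.52 to −0.47.

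A skeletal muscle fibre contracts when calcium leaves its store and binds troponin C, which moves tropomyosin on the thin filament and lets myosin heads pull on actin. Fast fibres and slow fibres build the same machine from different isoforms, and adult fast fibres are further told apart by the myosin heavy chain they use. The mammary fat pads lie beneath the skin, next to muscle of the trunk. Smooth muscle and myoepithelial cells use other actin, myosin and regulatory genes.

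The upstream sequences are shown as background, because muscle regulatory proteins are known to bind short motifs near such genes. The part of these motifs in the pattern across arrays was not tested. RefSeq sequences of the 250 bases before the listed transcription start (mouse build GRCm38.p6) were at hand for 8 of the 10 genes, in 10 windows, since Mb has 3 listed starts. The windows of Acta1 and Myh4 each hold more than 1 searched motif, Tnnc2 followed the other muscle genes most closely, and Myh2 followed them least. Capitals mark the letters CAGCTG, a form of the E-box that myogenic basic helix-loop-helix factors can bind, the CArG box of serum response factor, and the MEF2 site. All 3 motifs were searched on both strands, and no match of one overlapped a match of another in the windows printed here.
Acta1, chr8:123894776-123895025, minus strand: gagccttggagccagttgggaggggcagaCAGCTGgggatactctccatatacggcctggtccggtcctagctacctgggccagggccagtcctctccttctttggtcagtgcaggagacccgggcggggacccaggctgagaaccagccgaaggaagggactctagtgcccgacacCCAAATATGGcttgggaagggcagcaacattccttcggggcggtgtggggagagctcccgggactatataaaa
Myh4, chr11:67237562-67237811, plus strand: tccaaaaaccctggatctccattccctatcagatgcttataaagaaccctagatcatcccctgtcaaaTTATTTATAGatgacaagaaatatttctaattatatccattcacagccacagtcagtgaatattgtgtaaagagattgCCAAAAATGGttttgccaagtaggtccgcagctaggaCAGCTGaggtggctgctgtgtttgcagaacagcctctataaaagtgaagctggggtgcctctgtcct
Tnnc2, chr2:164779735-164779984, minus strand: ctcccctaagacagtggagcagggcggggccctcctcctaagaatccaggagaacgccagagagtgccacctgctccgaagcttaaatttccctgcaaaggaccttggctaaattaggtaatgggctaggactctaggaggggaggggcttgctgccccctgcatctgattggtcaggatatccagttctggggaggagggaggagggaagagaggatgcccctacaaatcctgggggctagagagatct
Myh2, chr11:67170777-67171026, plus strand: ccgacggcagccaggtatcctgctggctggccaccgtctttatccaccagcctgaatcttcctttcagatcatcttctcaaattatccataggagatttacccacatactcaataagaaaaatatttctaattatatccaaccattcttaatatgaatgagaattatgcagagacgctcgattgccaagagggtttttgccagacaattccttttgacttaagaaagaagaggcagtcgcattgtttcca

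CAGCTG was present upstream of 5 of the 8 genes, Acta1, Myh4, Mylpf, Ckm and Mb. By window, it was in 6 of their 10 windows and in 13.0% of all 32851 windows of this length. In Mb it is the same site, shared by overlapping windows. The CArG box was present upstream of 2 genes, Acta1 and Myh4, in 2 of the 10 windows, and in 1.47% of all windows. The MEF2 site was present upstream of Myh1 and Myh4, in 2 of the 10 windows, and in 2.92% of all windows. The Tnnc2 and Myh2 windows hold none of these letters. These counts describe the letters in these windows only.

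Most of the muscle genes were high or low together from one preparation to the next, in both genotypes. The brightest probe set stood for each gene, as log2(value + 16), and the 10 values were averaged on each array. This mean was 9.02, 8.68, 9.94, 8.56, 8.09 and 8.61 on p190B replicates 1 to 6, and 8.13, 8.85, 9.21, 9.63, 9.83 and 8.19 on control replicates 1 to 6. The highest arrays were p190B replicate 3 and control replicates 5, 4 and 3, and the lowest were p190B replicate 5 and control replicates 1 and 6. The highest and the lowest array of all 12 thus came from the same genotype, p190B, and differed by 1.85 on the log2 scale, a 3.61-fold range. The groups overlapped over nearly their whole ranges.

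p190B replicate 3 was the highest array for 6 of the 10 genes and among the 4 highest for 9. Control replicates 4 and 5 were each among the 4 highest for 9 genes as well. At the other end, p190B replicate 5 was among the 3 lowest for 8 genes, and control replicates 1 and 6 were among them for 7 each. In a bulk preparation, fewer fibres or fibre fragments and less RNA per fibre cannot be told apart.

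**Figure D1:**
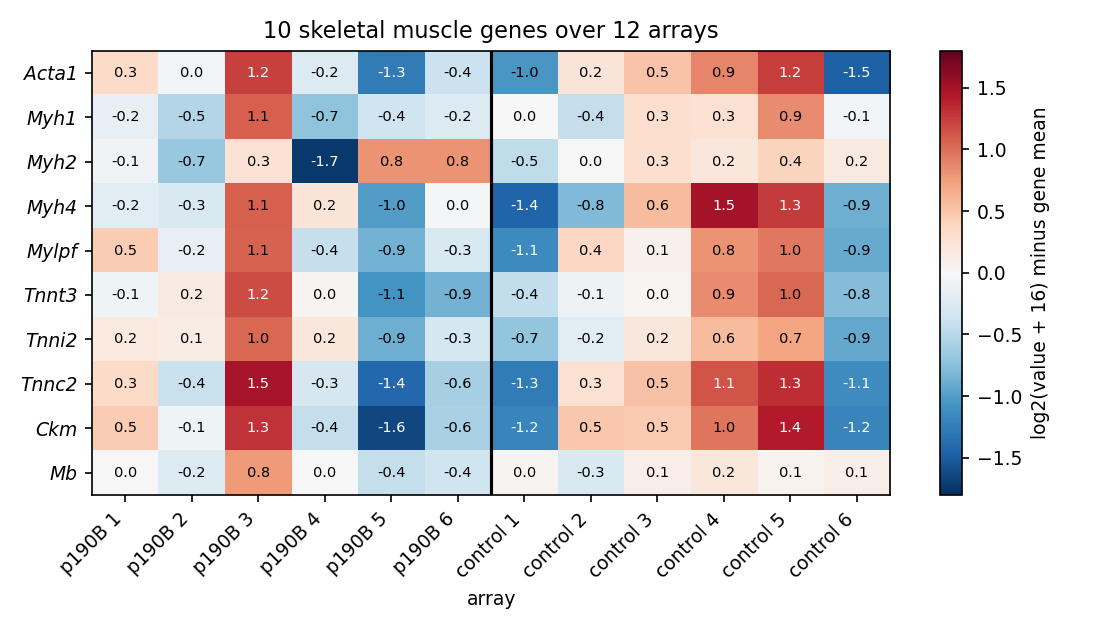
Each row is 1 gene, read by its brightest probe set, and each column 1 array, with p190B replicates 1 to 6 left of the line and control replicates 1 to 6 right of it. Cells give log2(value + 16) minus the mean of the gene over 12 arrays, and p190B replicate 3 and control replicates 4 and 5 are high for all rows but Myh2 and Mb, whose rows are patchier.

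On the thin filament, Acta1, which encodes skeletal alpha-actin, read 968 units at the lowest, 2124 at the median and 5513 at the highest on p190B arrays, against 839, 3060.1 and 5589 on control arrays. Its 2 highest arrays were control replicate 5 and p190B replicate 3, and its 2 lowest were p190B replicate 5 and control replicate 6, so that each genotype held an array near either end. Tnnc2, fast troponin C and the calcium sensor of the filament, read 299, 640.2 and 2321 on p190B arrays, against 332, 1095 and 2091 on control arrays. The arrays stood in nearly the same order for Tnnc2 as for the mean of the 10 genes, with p190B replicate 3 at the top and p190B replicate 5 at the bottom.

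Tnni2, fast troponin I and the inhibitory subunit, read 235, 499.8 and 938 on p190B arrays, against 230.3, 453 and 747 on control arrays. Tnnt3, fast troponin T, which ties the troponin complex to tropomyosin, read 166, 361 and 846 on p190B arrays, against 205, 358 and 767 on control arrays. In both genes p190B replicate 3, control replicate 5 and control replicate 4 were the 3 highest arrays. Tnni2 and Tnnt3 lie near each other on chromosome 7.

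On the thick filament, Mylpf, the fast regulatory myosin light chain, read 393, 621 and 1521 units on p190B arrays, against 318, 850.5 and 1413 on control arrays. Myh4, the myosin heavy chain of type IIb fibres, read 124, 242 and 571 on p190B arrays, against 87.0, 272 and 770.1 on control arrays. Its highest array was control replicate 4 and its lowest control replicate 1, an 8.85-fold range that both ends of the control group set. Myh1, the heavy chain of type IIx fibres, read 136, 188 and 512 on p190B arrays, against 170.1, 259.95 and 437 on control arrays. For Myh1, p190B replicate 3 was the highest array, and the other p190B arrays lay between 136 and 209.9.

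Myh2, the heavy chain of type IIa fibres, did not follow the block. It read 17.9, 106 and 183 units on p190B arrays, against 66.3, 113 and 133 on control arrays. Its highest arrays were p190B replicates 5 and 6, and p190B replicate 5 was the lowest array for Tnnc2, Ckm and Tnnt3. Its lowest array was p190B replicate 4. Myh2 lay below the level that was tested, and MAS5 values this dim are noisy. Myh2, Myh1 and Myh4 lie in one cluster on chromosome 11 and encode closely similar proteins, so probe sets can read more than 1 of them.

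Of the genes for energy supply, Ckm, the muscle creatine kinase, read 188, 521 and 1539.7 units on p190B arrays, against 262, 865 and 1695 on control arrays. Its array order was close to that of Acta1 and Tnnc2, with control replicate 5 and p190B replicate 3 on top. Mb, the oxygen-binding protein myoglobin, read 328, 409 and 771 on p190B arrays, against 368, 473 and 518 on control arrays. Mb was high on p190B replicate 3, and no other array read above 518 units. Control replicate 5, with the second highest muscle mean, read 466 units for Mb.

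**Figure D2:**
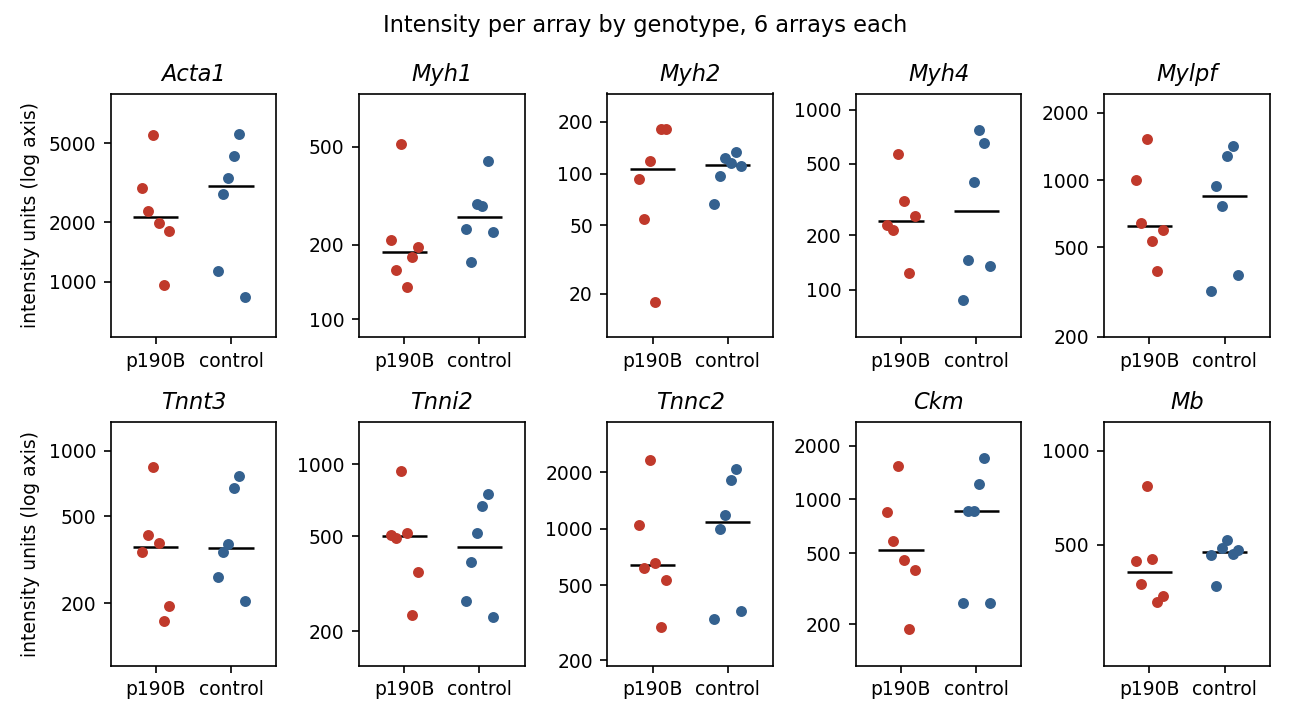
Points are the intensities of the brightest probe set of each gene on 6 p190B arrays (left) and 6 control arrays (right), on a log axis, in the order of replicate numbers within a group, and bars are medians. The groups overlap in every panel, and in most of them 1 p190B array, replicate 3, stands beside control replicates 4 and 5 at the top.

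The spread of each gene over the 12 arrays is what chose these genes, and it is given as a description. The SD of log2(value + 16) was 1.01 for Tnnc2 and for Ckm, 0.95 for Myh4 and 0.92 for Acta1, each at the 99.0th percentile of the 27022 tested probe sets or above, whose median SD was 0.22. Mylpf had 0.75, Tnnt3 0.73, Myh2 0.70, Tnni2 0.62 and Myh1 0.54. Mb had 0.32, at the 77.6th percentile. The spread lay within the genotypes: for Tnnc2 the SD was 0.98 within p190B and 1.11 within control, and for Acta1 it was 0.82 within p190B and 1.08 within control.

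Each gene was then set against the mean of the other 9 over the 12 arrays, as a description with no p-value. All values of an array share its preparation, its hybridisation and its scaling. Tnnc2 tracked the others most closely, with Pearson's r = 0.98 and a Spearman rank correlation of 0.98, followed by Acta1 (r = 0.96, Spearman 0.97), Ckm (0.95 and 0.94) and Mylpf (0.95 and 0.96). Tnni2 gave r = 0.92, Tnnt3 0.90 and Myh4 0.87, and Myh1 gave 0.73. Mb gave r = 0.61, with 0.92 among the 6 p190B arrays and 0.20 among the 6 control arrays. Myh2 gave r = 0.08, with −0.14 among p190B arrays and 0.72 among control arrays. Without Mb and Myh2, the 28 pairs of the other 8 genes had a median r of 0.90 and a lowest of 0.60, and the closest pair of all was Tnnc2 with Ckm (r = 0.99).

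The genes differed in how steeply they moved with the block. Per log2 unit of the mean of the other genes, the slope of a straight line over the 12 arrays was 1.63 for Tnnc2, 1.59 for Ckm, 1.42 for Acta1 and 1.33 for Myh4. It was 1.11 for Mylpf, 1.02 for Tnnt3, 0.88 for Tnni2, 0.59 for Myh1, 0.28 for Mb and 0.084 for Myh2. Adding 16 units to every value makes values near the background of an array move less, and its part in these slopes was not tested. Over the 12 arrays Mb read 328 to 771 units and Myh4 87.0 to 770.1 units.

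Further probe sets of the same genes were dimmer. The second Myh1 probe set, 1427868_x_at, followed the first (r = 0.87), and the second Tnni2 probe set, 1438609_x_at, followed its own first (r = 0.88). A dim Ckm probe set, 1444643_at, ran from 62.6 to 122 units and followed the bright one with r = 0.79, and the dim Myh4 probe set 1458368_at gave r = 0.54. The third Myh1 probe set, 1452465_at, ran from 4.6 to 34.0 units (r = 0.01), and the third Tnni2 probe set, 1438608_at, from 3.3 to 50.3 units (r = −0.22).

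The dim Mb probe set 1422420_at was the exception among the 17, because its groups did not overlap. It read 54.0, 36.3, 20.6, 56.3, 22.5 and 38.7 units on p190B replicates 1 to 6, against 18.9, 20.4, 9.1, 4.4, 19.1 and 8.6 on control replicates 1 to 6. All 6 p190B arrays were above all 6 control arrays, by 0.2 units at the closest. It went against the bright Mb probe set across arrays (r = −0.33). In a limma fit with no filter on dim probe sets it gave a log2 difference of 0.86 (SE 0.23) with an adjusted p of 0.314, which did not pass. Groups that do not overlap were found for 0.877% of tested probe sets. This probe set was too dim to be tested, and that share does not cover probe sets this dim.

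Other genes of fast fibres had the most similar pattern of all genes on the array. Over 12761 other genes above the filter, each by its brightest probe set, the 15 with the highest r with the muscle mean began with Myl1, the fast essential myosin light chain (r = 0.96, Spearman 0.98), Atp2a1, the calcium pump of the fast fibre's store (0.95 and 0.90), and Pvalb, the calcium buffer parvalbumin (0.95 for both). The sarcomere protein Myot, the muscle phosphoglycerate mutase Pgam2, the fast Z-disc actinin Actn3, Apobec2, a deaminase family member of muscle, Myoz1, a calcineurin-binding Z-disc protein, and the fast myosin-binding protein Mybpc2 followed at r = 0.92 to 0.87. Of these 9, all but Apobec2 belong to the muscle lists described further on. The other 6 were 0610040B10Rik, Rdh14, Ubr7, Wdr7, the basement membrane protein Nid2 and Myh10, a nonmuscle myosin heavy chain, at r = 0.89 to 0.82. In all, 18 genes (0.141%) reached r of 0.8 or more, and the median r was 0.00.

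Myl1 shows the pattern in single values. It read 2337, 1368, 4537, 1314, 339 and 1065 units on p190B replicates 1 to 6, against 534, 1655, 1859, 3150.3, 3918 and 426 on control replicates 1 to 6. Its range over the arrays was 3.68 on the log2 scale, wider than that of any of the 10 genes. The ranges of these 9 genes ran from 1.39 for Myoz1 to 3.68 for Myl1, while those of the other 6 ran from 0.28 for Wdr7 to 0.84 for Nid2. The 2 arrays farthest from the median of the muscle mean were the 2 highest, p190B replicate 3 and control replicate 5. Without these 2 arrays, here and below, r covers a range cut at its high end only. It was then 0.94 for Myl1, 0.74 for Mybpc2 and 0.66 for Myh10.

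**Figure D3:**
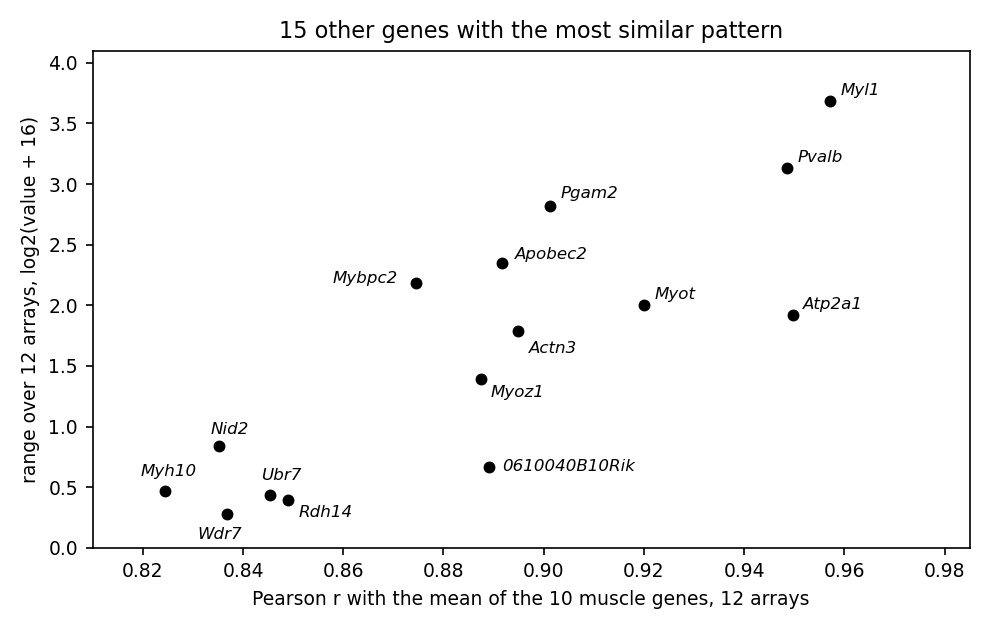
Points are the 15 genes outside the 10 with the highest Pearson r with the muscle mean over 12 arrays (horizontal axis), against their range over the arrays in log2(value + 16) (vertical axis). The 9 genes known from muscle lie at 1.39 or above, and Nid2, the widest of the other 6, lies at 0.84.

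Tpm2, beta-tropomyosin of the thin filament, is also made by smooth muscle and myoepithelial cells, and its probe sets went different ways. The brightest, 1419738_a_at, ran from 16744 to 18909 units over all arrays and did not follow the muscle mean (r = −0.07). Probe set 1449577_x_at, chosen after its values were seen, read 568 to 1432 on p190B arrays and 566 to 1439.5 on control arrays and followed it with r = 0.94. The remaining Tpm2 probe sets gave r = 0.31 and 0.22.

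At the opposite end, the 5 genes with the lowest r were Tceanc2 (−0.83), Csn1s2a (−0.81), Gm15706 (−0.80), Gm9958 (−0.80) and Galt (−0.79). Csn1s2a, which encodes an alpha-casein of milk, read 35611, 49447, 28147, 38375, 49649 and 33981 units on p190B replicates 1 to 6, against 41196, 44424, 39283, 26810, 24615 and 39697 on control replicates 1 to 6. The 3 arrays with the highest muscle mean had the 3 lowest Csn1s2a values. A second bright Csn1s2a probe set, 1420633_a_at, also gave r = −0.81. Without the 2 arrays farthest from the median, r for Csn1s2a was −0.65.

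Over the 12 arrays, 3 of the wider lists of muscle genes followed the muscle mean closely and 2 did so less. Differences between lists were not tested. The mean of 16 further fast fibre contractile and calcium genes ran from 6.89 to 7.71 on p190B arrays and from 6.84 to 7.75 on control arrays, and followed the muscle mean with r = 0.95 (0.94 within p190B, 0.96 within control). Of these 16 genes, 6 had r above 0.7. Casq1, the calcium store protein of fast fibres, had r = 0.69, and the remaining 9 ran from 0.49 to −0.57. The lowest of these were Sypl2 at −0.57 and Mylk2, a skeletal muscle myosin light chain kinase, at −0.50, both below the tested level, and Jsrp1, which was tested, at −0.29. The mean of 22 sarcomere scaffold genes, which fast and slow fibres share, gave r = 0.85 (0.86 within p190B, 0.95 within control), and that of 16 muscle energy metabolism genes gave 0.84 (0.81 and 0.88). Each of these lists had 4 genes above 0.7. Without the 2 arrays farthest from the median of the muscle mean, r was 0.94 for the fast fibre list. It was then 0.69 for the sarcomere scaffold list and 0.66 for the metabolism list, beside 0.66 for fibroblast markers. Most of their brightest members had a low r: Tpm1, an alpha-tropomyosin, had 0.28, Tpm3, another tropomyosin, −0.33, Ldb3, a Z-disc protein, 0.08, Gpd1, a glycerol phosphate dehydrogenase, −0.12, the glycolytic enzyme Aldoa 0.24 and phosphofructokinase Pfkm −0.17. Car3, a carbonic anhydrase of fat and slow muscle, had r = 0.61.

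Slow and cardiac isoforms followed the muscle mean less closely. The mean of their 14 genes had r = 0.30, at 0.07 within p190B and 0.59 within control, and 0 of them had r above 0.7. The highest was Tnnt1, slow troponin T, at 0.69, and the lowest was Myl2, the slow and cardiac regulatory light chain, at −0.77, both below the tested level. The slow heavy chain Myh7 read 19.1 to 92.7 units on p190B arrays and 19.3 to 98.2 on control arrays, and the cardiac heavy chain Myh6 read 1.6 to 41.0 and 17.5 to 38.7. Slow troponin I, Tnni1, read 19.1 to 88.0 and 12.7 to 118, with r = 0.62. Myh7, Myh6 and Tnni1 also lie below the tested level. Brighter members were Actc1, cardiac actin, at 382 to 763 and 386 to 731 units (r = 0.45), and Atp2a2, a calcium pump of slow muscle and of many other cells, at 18328 to 21854 and 16761 to 21008 (r = −0.10). Tnnc1, the troponin C of slow and cardiac muscle, had r = 0.25, and Casq2, the cardiac calcium store protein, −0.01.

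Genes of muscle stem cells and of muscle formation included 8 of 12 below the tested level. The mean of the 12 measured genes gave r = 0.24 with the muscle mean, at −0.74 within p190B and 0.85 within control, and 0 had r above 0.7. Pax7, which marks satellite cells, read 25.1 to 62.9 units on p190B arrays and 7.3 to 39.7 on control arrays. The embryonic heavy chain Myh3 read 7.4 to 53.2 and 7.1 to 50.4, and Mymk, needed for myoblast fusion, 5.7 to 24.6 and 2.3 to 10. The myogenic factors Myod1 and Myog read 106 to 156 and 52.6 to 229 units on p190B arrays, against 74.3 to 198 and 66.5 to 174 on control arrays, with r = 0.28 and −0.01. The brightest of the list was Mef2c, a transcription factor of muscle and many other cells, at 1912 to 3063 units on p190B arrays and 2110 to 3687 on control arrays (r = 0.26). Vgll2, a transcriptional cofactor of muscle, read 116 to 249 and 44.1 to 192 (r = −0.01). No value in the table was 0.

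Markers of other cells had r with the muscle mean between −0.50 and 0.62 over the 12 arrays, and several were farther from 0 within a genotype. Smooth muscle and myoepithelial genes gave r = 0.24, and Acta2, smooth muscle actin, read 37346 to 40329.5 units on p190B arrays and 33415 to 40044 on control arrays (r = −0.24). Epithelial markers gave r = −0.12, endothelial and pericyte markers 0.37, fibroblast markers 0.49, nerve and Schwann cell markers 0.16, macrophage markers −0.34 and red blood cell markers −0.50. Within p190B, macrophage and red blood cell markers each had r = −0.86, and within control, fibroblast markers had 0.74 and endothelial markers 0.60, each over 6 arrays. Epithelial markers went opposite ways in the genotypes, with 0.63 within p190B and −0.53 within control. Of the 6 red blood cell genes with values, only 2 were bright enough to be tested. These were Alas2 and Hbb-b2, with r = −0.04 and 0.10 over the 12 arrays. Of these lists, adipocyte markers had the highest r over all 12 arrays (r = 0.62, Spearman 0.47), with the adipokine Adipoq at 969 to 2020.3 units on p190B arrays and 777 to 2228 on control arrays. Adipoq had the highest r of its list, 0.66, and the brighter Fabp4, Lpl and Cd36 had 0.21, 0.27 and 0.39. In this list 0 genes had r above 0.7. Over the 8 adipocyte genes with values, the summed intensity ran from 75032 to 92370 on p190B arrays and from 67719 to 97967 on control arrays, and r was 0.24 without the 2 arrays farthest from the median. Without those arrays the highest were fibroblast markers at 0.66 and nerve and Schwann cell markers at 0.46. The part of these cells in the muscle pattern was not tested.

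T and B lymphocyte markers varied even more than muscle genes and in another order. Their mean over 7 genes with values ran from 6.27 to 10.57 on p190B arrays and from 6.98 to 10.61 on control arrays, with r = −0.36 to the muscle mean and 0.01 without the 2 farthest arrays. Control replicates 4 and 5, which were next to each other in muscle signal at 9.63 and 9.83, had lymphocyte means of 10.61 and 6.98. Within p190B r was −0.61 and within control −0.10, each over 6 arrays. Whether lymphocyte and muscle signal are related was not tested.

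**Figure D4:**
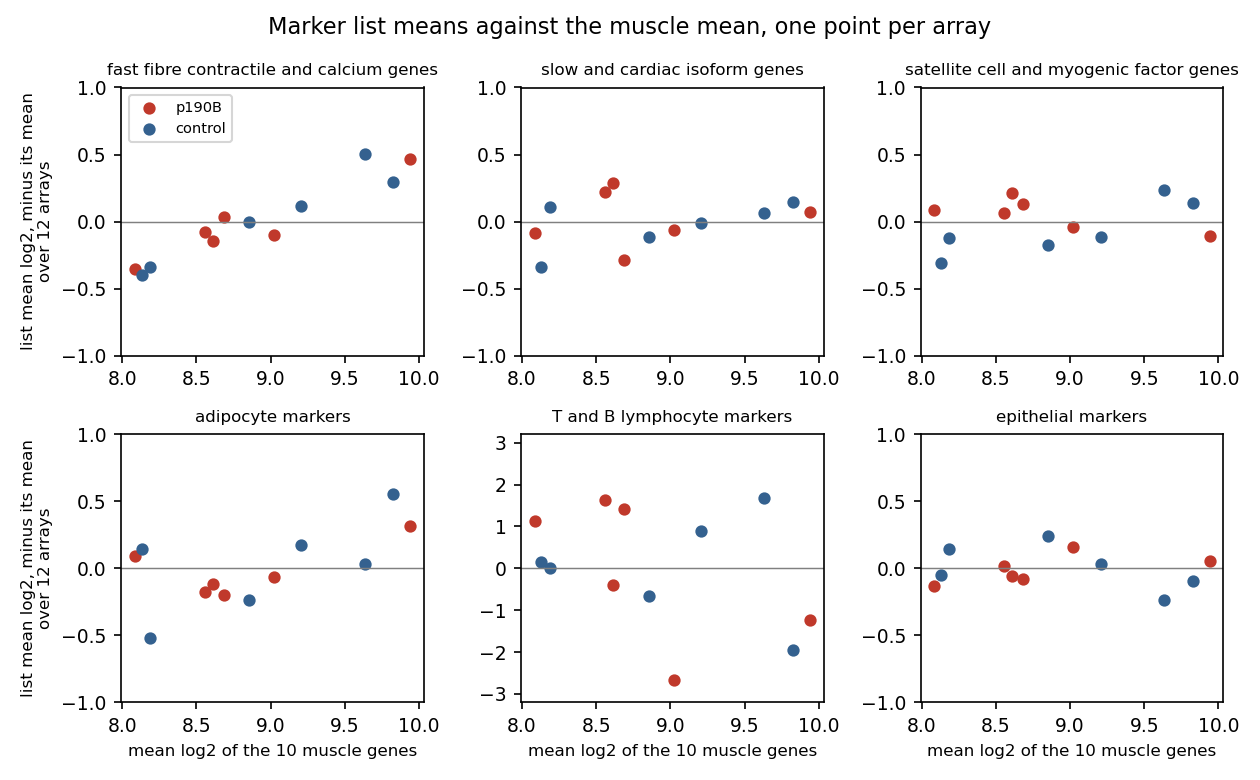
Each point is 1 array, p190B in red and control in blue, with the muscle mean in log2 units on the horizontal axis and the mean of a marker list, minus its mean over 12 arrays, on the vertical axis (wider for lymphocytes). Over the 12 arrays, fast fibre genes rise along the muscle mean, with r = 0.95. The slow, satellite, epithelial and lymphocyte lists do so less or not at all, with r from −0.36 to 0.30. The adipocyte list lies between, with r = 0.62. Within p190B, r was 0.07 for the slow, −0.74 for the satellite, 0.63 for the epithelial and −0.61 for the lymphocyte list. Within control, these values were 0.59, 0.85, −0.53 and −0.10.

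The comparison of genotypes asks whether muscle signal differed between preparations with and without p190B. By limma, with Benjamini-Hochberg adjustment over all tested probe sets, 0 of the 11 tested muscle probe sets passed an adjusted p of 0.05, in an array-wide background of 0.0370% (10 of 27022, with 0.00370% higher and 0.0333% lower in p190B). At an unadjusted p under 0.05 there were also 0 of the 11, where the background was 9.32%. Of the 11, 9 were lower and 2 higher in p190B, with a median log2 difference of −0.09, against 0.02 over all tested probe sets. Of all 27022 tested probe sets, 14839 were higher in p190B. Most of the 11 moved together across arrays, so their directions are not separate observations.

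The largest differences were those of Ckm, at 671 ± 478 units on p190B arrays and 861 ± 554 on control arrays (SD, n = 6 each), and of Myh1, at 232 ± 140 on p190B arrays and 274 ± 91.5 on control arrays. The log2 difference of Ckm was −0.32 (95% interval −1.41 to 0.77) and that of Myh1 1427520_a_at −0.31 (−0.90 to 0.28). Tnnc2 gave −0.29 (−1.38 to 0.79), Tnnt3 −0.20 (SE 0.37) and Acta1 −0.12 (−1.12 to 0.88). Mb gave −0.09 (−0.46 to 0.28), Myh4 −0.07 (−1.11 to 0.97) and Mylpf −0.06 (−0.88 to 0.77). Tnni2 was the gene on the higher side, at 0.11 (−0.58 to 0.80) for 1416889_at and 0.28 (−0.32 to 0.88) for 1438609_x_at. The limma adjusted p-values ran from 0.783 to 0.989.

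The intervals are wide, because the arrays of a genotype differed among themselves. For the muscle probe sets the standard error of the difference had a median of 0.37, against 0.12 over all tested probe sets. For Ckm and Tnnc2, 2-fold falls and 1.5-fold rises both lie inside the interval. The muscle mean was 8.82 ± 0.63 over the p190B arrays and 8.97 ± 0.72 over the control arrays (SD, n = 6 each). The difference, −0.16, is smaller than either SD.

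The difference rests on which arrays are counted. It was −0.38 without p190B replicate 3, the array with the most 18S signal, −0.49 without p190B replicates 1 and 3, and 0.01 without control replicate 5. Without p190B replicates 1 and 3, Ckm gave −0.84 and Tnnc2 −0.82, with limma adjusted p of 0.528 and 0.524, and 0 of 11 muscle probe sets passed. High muscle signal was not limited to the array with high 18S signal: control replicates 4 and 5 read 433 and 385 units for 18S and had Actb ratios of 0.28 and 0.25.

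**Figure D5:**
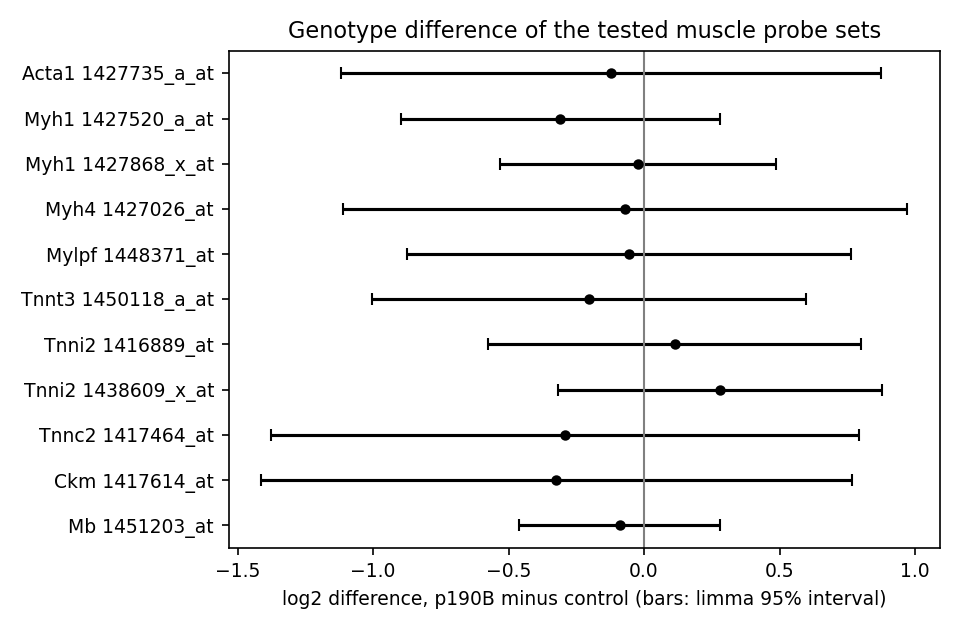
Points are log2 differences, p190B minus control, of the 11 tested muscle probe sets, and bars are 95% intervals from limma with 6 arrays per group. All intervals include 0, and the widest, for Ckm, runs from −1.41 to 0.77.

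None of the other lists held a gene that passed between genotypes. By limma, 0 of 9 tested fast fibre genes, 0 of 5 slow and cardiac genes, 0 of 11 sarcomere scaffold genes, 0 of 13 muscle metabolism genes and 0 of 4 satellite cell genes passed, with median log2 differences of −0.07, 0.06, 0.02, −0.04 and −0.04 beside 0.02 over all tested probe sets. Among the other cell type lists 0 members passed either. The list gene nearest to passing was Cdh1, the epithelial adhesion molecule E-cadherin, singled out after its values were seen. Its log2 difference was −0.48 (SE 0.13), with a limma adjusted p of 0.233.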

How the data were processed

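Total RNA was labelled with biotin and hybridised to Affymetrix arrays, per the labels' protocols. The deposited table holds intensity values on a linear scale, 1 per probe set and array. Per the submitters' processing notes they come from MAS5, whose version and scaling no source used here gives. Values ran from 0.1 to 64224.3.

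Titles gave each array's group. Gene names are those of the platform annotation, and all 17 muscle probe sets matched a RefSeq gene of build GRCm38.p6 by Entrez ID. Values were used as log2(value + 16), and probe sets at or above the 40th percentile of mean log2 value (about 101 units) were tested with limma 3.58.1 in R 4.3.3 with a mean-variance trend. The two-sided p-values of all 27022 tested probe sets were adjusted together (Benjamini-Hochberg). The muscle genes and 14 further lists were chosen with earlier results of these data known. No test was made on the muscle mean or on correlations. The rule for genes named beyond the 10 took the 4 brightest of each list (all for the muscle lists, examples for the others), the dimmest of the slow and satellite lists, and the 15 highest and 5 lowest by r. Cdh1, Tnnt1, Myl2, Sypl2, Mylk2 and Jsrp1 fall outside it and were named after their values were seen. Simulated data with known changes were used to test the limma script. Alternatives were other pseudocounts (1 and 64), filters, normalisations, variance models, the replicate block and leaving out arrays. Figures used matplotlib 3.10.9 in Python 3.11.15.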

Additional observations from a re-analysis of the deposited data

Results flagged for a closer look

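Among 64 groups of 6 arrays examined, 6 held an array far from the others. The usual rate of 1 in 20 is no yardstick here. The muscle genes were chosen for their spread over these arrays, and the groups share arrays. On p190B replicate 3, Myh1 1427520_a_at read 9.04 on the log2 scale against 7.25 to 7.82 on the other p190B arrays, Myh1 1427868_x_at 8.83 against 7.44 to 7.81, and Mb 1451203_at 9.62 against 8.43 to 8.86. The mean of the muscle energy metabolism genes was 9.21 on the same array, against 8.72 to 8.83. On control replicate 2, Mb 1451203_at read 8.58 against 8.90 to 9.06 on the other control arrays, and the dim Tnni2 1438608_at read 6.05 against 4.27 to 4.65.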

How the results depend on the processing

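In all 22 other settings 0 muscle probe sets passed limma. Of 237 values of the 11 tested muscle probe sets under these settings, 213 kept their direction, 24 turned it and 0 passed, and the lowest adjusted p was 0.314 (Myh1 1427520_a_at, without p190B replicates 1 and 3, a setting added after seeing the data). The mean difference of the 10 genes was −0.16, and lay between −0.38 and 0.01 over the fits that left out one array, and −0.084 with all probe sets of each gene averaged. Over the fits that left out one array, Acta1 ran from −0.43 to 0.12, Myh1 1427868_x_at from −0.23 to 0.087, Myh4 from −0.36 to 0.22, Mylpf from −0.29 to 0.13 and Tnni2 1416889_at from −0.08 to 0.30. Tnni2 1416889_at was −0.087 with array weights and −0.16 without p190B replicates 1 and 3. The cause was not tested.

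Over all probe sets the limma count of 10 became 19 with array weights, 3 without trend, 17 with a filter at the 60th percentile (18015 tested), 5 with no filter (45037 tested), 31 after quantile normalisation (9 higher), 4 with equal medians (0 higher), 5 without p190B replicates 1 and 3, and 4 to 9 with one array left out. With the replicate number as a block it was 0 (2287 at an unadjusted p under 0.05). Same-numbered arrays of the genotypes correlated in their deviations from −0.29 to 0.41, against a median of 0.06 for arrays of different numbers. The labels do not say whether the numbers pair the samples, and these correlations cannot settle it. Dim probe sets limit what can be read for Myh2 and for the slow, satellite and red blood cell lists.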
